A study of Mus musculus with 6 samples.

Results

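Carbonic anhydrase genes were followed in RNA bound to tagged ribosomes from neonatal mouse kidney. The 10 genes were chosen by symbol, Car2, Car3, Car4, Car5b, Car8, Car9, Car11, Car12, Car13 and Car14, and all 10 were found among the 48587 genes of the table. The groups were 3 littermate controls, Cdh16Cre;Foxp1fl/+;RiboTag, which carried 1 floxed Foxp1 allele, and 3 Foxp1-deficient libraries, Cdh16Cre;Foxp1fl/fl;RiboTag. Both groups therefore carried Cre and the RiboTag allele, which gives ribosomes an HA tag in cells where Cre is active, and all 6 libraries were anti-HA pulldowns from kidney. The Cre driver, Cdh16, is a cadherin gene active in the epithelium of kidney tubules, and Foxp1 encodes a forkhead transcription factor. The Foxp1-deficient samples are also labelled with a chronic acid load and the controls with a vehicle, although no acid load appears in the protocols, so genotype and the labelled treatment cannot be told apart. The age in days was not stated, and nothing in the labels says that the libraries came from separate animals, so p-values speak only of how far these libraries vary, perhaps for technical reasons.

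Carbonic anhydrases are zinc enzymes that interconvert carbon dioxide and water with bicarbonate and a proton. In the kidney, the cytosolic enzyme encoded by Car2 supplies protons and bicarbonate inside tubule and intercalated cells, and the membrane-bound enzymes encoded by Car4, Car12 and Car14 act on the luminal or basolateral surface during bicarbonate reabsorption. Car5b encodes a mitochondrial enzyme, Car9 a membrane enzyme known as a hypoxia target, Car3 a cytosolic enzyme of low activity best known from muscle and fat, and Car13 another cytosolic enzyme. Car8 and Car11 encode related proteins without carbonic anhydrase activity.

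The libraries held between 9710048 and 18958196 counts. Values below are CPM, counts scaled to a common library size after TMM (an edgeR factor for library composition), unless stated otherwise. Tubule transcripts were uneven between libraries of both groups. Slc34a1, a proximal tubule phosphate transporter gene, reached 107 and 108 CPM in the libraries numbered 3 but no more than 11.4 elsewhere, and Umod, a thick ascending limb gene, had 69.8 and 75.6 CPM in the same 2 libraries but no more than 0.735 elsewhere. Foxi1 and Atp6v1g3, genes of intercalated cells, had no count in the libraries numbered 1 and 2 of either group, so defining markers of several kinds of labelled kidney tubular cells were absent or near 0 there. Libraries with the same number resembled each other in their deviations from the group means, and both libraries numbered 2 were shallower, with 13885 and 14285 genes with a count against at least 18241 in the other 4. Foxp1 itself averaged 38.5 ± 9.27 CPM (SD, n = 3) in the control group, against 25.05 ± 12.2 CPM (SD, n = 3) in the Foxp1-deficient group, with overlapping groups. Its log2 fold change of -0.62 (SE 0.49) did not pass the test (edgeR quasi-likelihood, adjusted p = 0.9998). Foxp1 was lower in all 3 equally numbered pairs, as were 16% of genes tested. With the replicate number as a block its fold change was -0.72 (SE 0.28, edgeR, adjusted p = 0.853). Without Foxp1-deficient 2, which had 11.35 CPM, the fold change without the block was -0.27, without Foxp1-deficient 1 it was -0.93, and without control 1 it was -0.40. The counts cover all exons of Foxp1, not the floxed part alone.

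Per exon length, the cytosolic Car2 and Car13 were the leading carbonic anhydrase genes. As RPKM (CPM per kilobase of exon), Car2 averaged 15.3 ± 12.1 (SD, n = 6 libraries) with a range from 1.04 to 32.7, and Car13 8.81 ± 2.5 with a range from 5.48 to 12.45. Car4 followed at 4.54 RPKM, Car3 at 2.29, Car12 at 1.38, Car14 at 1.006 and Car9 at 0.646, and Car8, Car5b and Car11 averaged 0.319, 0.181 and 0.0966. No 2 neighbours in this order were apart in their ranges over the 6 libraries. Car2 exceeded Car13 in 4 of 6 libraries and Car13 exceeded Car4 in 5 of 6. In control 2 the order was different: Car13 led, followed by Car4, then Car8 and only then Car2.

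**Figure D1:**
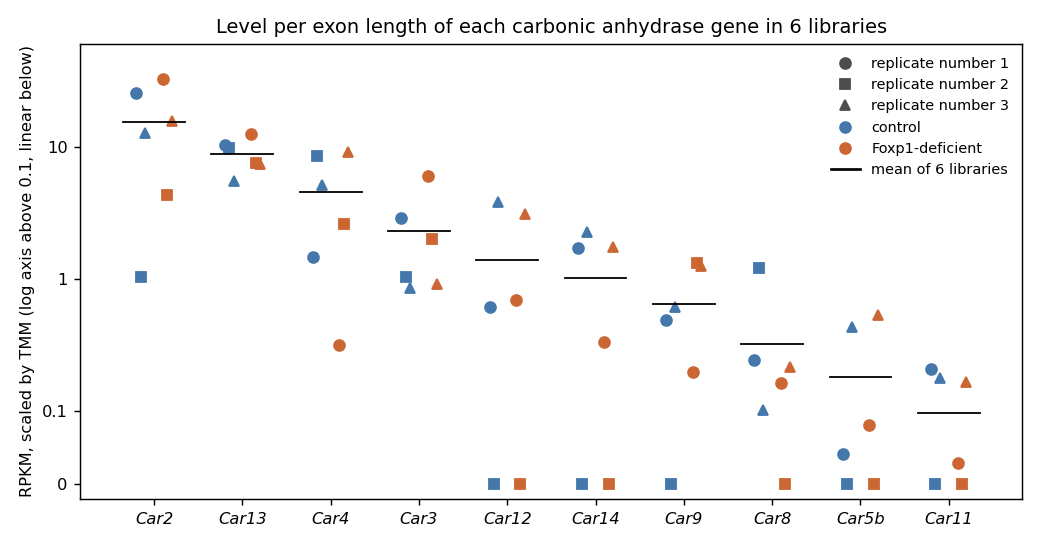
RPKM of the 10 carbonic anhydrase genes in each of 6 libraries, ordered by mean, with genotype as colour and replicate number as symbol; the axis is logarithmic above 0.1 and linear below, and the black line is the mean over 6 libraries. Car2 spans 1.04 to 32.7 RPKM, Car13 stays between 5.48 and 12.45, and Car5b, Car11, Car12 and Car14 lie at 0 in both libraries numbered 2.

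Car2 (mm10, chromosome 3, 14886273 to 14900770, plus strand) was high in the libraries numbered 1, intermediate in those numbered 3 and low in those numbered 2, in both genotypes. It had 61.3, 2.52 and 30.7 CPM in control libraries 1, 2 and 3, against 79.1, 10.45 and 38.1 CPM in the equally numbered Foxp1-deficient libraries. The 24 counts behind the value of control 2 give an exact 95% Poisson interval of 1.61 to 3.75 CPM, and the 923 of control 1 give 57.4 to 65.4, so the gap between these libraries is far beyond counting error. The groups overlapped, although the Foxp1-deficient library was higher in each of the 3 equally numbered pairs, by 0.36, 1.70 and 0.31 on the log2(CPM + 1) scale. The log2 fold change was 0.43 (SE 1.06), or 0.78 (SE 0.38) with the replicate number as a block, and neither passed (edgeR quasi-likelihood, adjusted p = 0.9998 and 0.853). The direction turned without control 2 (-0.11) and without Foxp1-deficient 1 (-0.38).

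Erythroid transcripts other than globins were also high in the libraries numbered 1, and red cells express Car2. Alas2, encoding the first enzyme of haem synthesis in red cell precursors, had 52.7, 3.47 and 6.32 CPM across the controls, against 42.6, 2.17 and 8.51 across the other group, and Ermap, Epb42, Klf1 and Rhag were likewise highest in library 1 of each group. The 10 erythroid genes summed to 837, 1190 and 277 CPM in control libraries 1, 2 and 3, most of it from Hba-a1. In Foxp1-deficient libraries 1, 2 and 3 the sums were 684, 1450 and 672 CPM. These sums, like Hba-a1 and Hba-a2, were highest in the libraries numbered 2, where Car2 was lowest. Hbb-bt was highest in the libraries numbered 1 and Hbb-bs in those numbered 3. Klf1, Epb42 and Rhag were at 0 in both libraries numbered 2. Slc4a1, an anion exchanger gene shared by red cells and intercalated cells, had 79.3, 10.1 and 6.22 CPM across the controls, against 114, 9.31 and 6.64 across the other group. The part of these cells in the Car2 level was not tested, and in bulk RNA fewer cells of a type and less RNA per cell cannot be told apart.

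Car13 (chromosome 3, 14641727 to 14663002, plus strand) was the steadiest member. It had 23.7, 22.4 and 12.6 CPM in control libraries 1, 2 and 3, against 28.6, 17.3 and 16.9 CPM in the equally numbered Foxp1-deficient libraries. Its highest and lowest library therefore lay much closer together than those of Car2, and it was the leading family member in both libraries numbered 2. The log2 fold change was 0.10 (SE 0.45; edgeR quasi-likelihood, adjusted p = 0.9998), and it turned to -0.13 without control 3 and to -0.21 without Foxp1-deficient 1.

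Car3 (chromosome 3, 14863512 to 14872523, plus strand) lies 13749 bases before Car2 and 200509 bases after Car13, but followed another pattern. It had 8.30, 2.94 and 2.43 CPM in control libraries 1, 2 and 3, against 17.3, 5.74 and 2.61 CPM in the equally numbered Foxp1-deficient libraries. The libraries numbered 1 stood highest, and those numbered 3, where Car2 was intermediate, stood lowest. In the controls the order of libraries 2 and 3 was within counting error, with exact 95% Poisson intervals of 1.95 to 4.25 and 1.80 to 3.20 CPM. The log2 differences within pairs were 0.98, 0.77 and 0.07, and the fold change of 0.91 (SE 0.90) did not pass (edgeR quasi-likelihood, adjusted p = 0.9998) and turned to -0.15 without Foxp1-deficient 1. Beside it, Acta1, the skeletal muscle actin gene, had 20.1, 6.20 and 2.24 CPM across the controls, against 37.8, 10.8 and 5.95 across the other group. No other listed muscle gene was highest in the libraries numbered 1. Mylpf, Myh8, Tnnt3, Tnni2 and Actn3 were each highest in the library numbered 2 of both groups, and Myh3 had a count only in Foxp1-deficient 3. Ckm was at 0 in 5 of 6 libraries, and the 8 muscle genes together ran from 22.7 to 63.7 CPM in controls and from 26.2 to 60.3 in Foxp1-deficient libraries, highest in the library numbered 2 of each group. Of the 7 adipocyte genes, Plin1, Cidec and Lep had no count, Adipoq reached at most 0.0565 CPM, and Fabp4, which other cells also express, made up nearly all of the list's sum, which was at most 10.2 CPM. The part of muscle cells in the Car3 level was not tested.

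**Figure D2:**
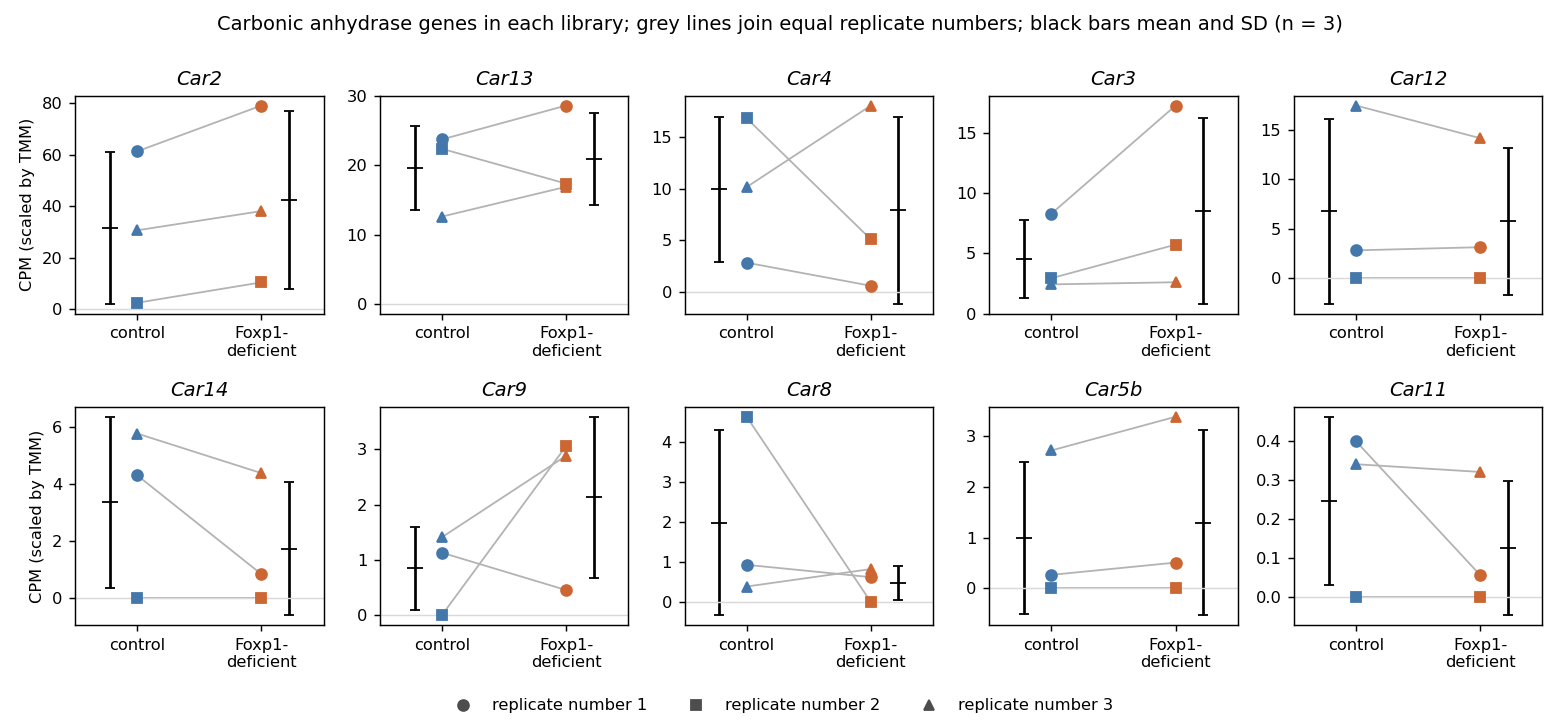
CPM of each carbonic anhydrase gene in controls and Foxp1-deficient libraries, with a symbol for each replicate number, a grey line joining libraries of equal number, and the mean and SD (n = 3) in black; the vertical scale differs between genes. Car2 and Car3 are higher in the Foxp1-deficient library of all 3 pairs, yet the groups overlap for all 10 genes.

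Membrane-bound members Car12 and Car14 and mitochondrial Car5b were highest in the library numbered 3 of each group and had no count in either library numbered 2. Car12 (chromosome 9, 66713686 to 66766845, plus strand) had 2.79, 0 and 17.45 CPM in control libraries 1, 2 and 3, against 3.11, 0 and 14.14 CPM in the equally numbered Foxp1-deficient libraries. A count of 0 allows up to 0.315 CPM in control 2 and 0.382 in Foxp1-deficient 2, taken as 3 counts per library. Set against these values, Car12 was 55.4-fold higher in control 3 and 37.0-fold higher in Foxp1-deficient 3. These ratios are approximate, as they leave out the counting error of the libraries numbered 3 and take fragments as independent molecules. Of the variance of the log2(CPM + 1) of Car12, 99.7% lay between replicate numbers and 0.0283% between genotypes. Its fold change was -0.23 (SE 1.93; edgeR quasi-likelihood, adjusted p = 0.9998), with a direction that turned without control 3 (2.04), Foxp1-deficient 1 (0.07) or Foxp1-deficient 2 (0.35).

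Car14 (chromosome 3, 95897768 to 95904691, minus strand) had 4.32, 0 and 5.78 CPM in control libraries 1, 2 and 3, against 0.848, 0 and 4.39 CPM in the equally numbered Foxp1-deficient libraries. Controls 1 and 3 were near each other, whereas Foxp1-deficient 1 lay well below Foxp1-deficient 3. The fold change was -0.93 (SE 1.87), or -1.32 (SE 1.03) with the block (edgeR quasi-likelihood, adjusted p = 0.9998 and 0.853). Without the block it ran from -2.91 without Foxp1-deficient 3 to -0.29 without control 3. Of its exon bases 17.5% overlap exons of Aph1a on the opposite strand, where reads counted without strand cannot be told apart.

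Car5b (chromosome X, 163976822 to 164027997, minus strand) was too low to be tested, with 4, 0 and 56 counts in controls 1, 2 and 3 and 9, 0 and 74 counts in Foxp1-deficient libraries 1, 2 and 3. The libraries numbered 3, at 2.72 and 3.39 CPM, carried nearly all of it. Proximal tubule genes were also highest in the libraries numbered 3, though not lowest in those numbered 2. The 10 listed genes summed to 40.2, 87.8 and 757 CPM in control libraries 1, 2 and 3, against 73.7, 142 and 814 CPM in the equally numbered Foxp1-deficient libraries. The 5 thick ascending limb genes summed to 179 and 204 CPM in the libraries numbered 3 and to at most 2.04 in the others, and 6 principal cell genes to 24.6 and 29.7 CPM against at most 11. The 7 stromal genes were also highest in the libraries numbered 3, at 19200 and 19800 CPM, and lowest in those numbered 2, at 6960 and 4150. The part of any of these cells in the levels of Car5b, Car12 and Car14 was not tested.

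Car4 (chromosome 11, 84957786 to 84966044, plus strand) was high in control 2 as well as in the libraries numbered 3. It had 2.86, 16.8 and 10.2 CPM in control libraries 1, 2 and 3, against 0.622, 5.10 and 18 CPM in the equally numbered Foxp1-deficient libraries. The Foxp1-deficient library was lower in pairs 1 and 2, by log2 differences of -1.25 and -1.55, and higher in pair 3, by 0.77. The fold change was -0.32 (SE 1.13), or -0.998 (SE 0.738) with the block (edgeR quasi-likelihood, adjusted p = 0.9998 and 0.853), and it turned to 0.28 without control 2 and to 0.22 without Foxp1-deficient 1. Endothelial cells can also express Car4. The 7 endothelial genes summed to 66.4 to 165 CPM in controls and 120 to 161 in Foxp1-deficient libraries, lowest in control 2. Tek was the largest part of each sum, with 57.8 to 108 CPM in controls and 113 to 128 in the other group. Pecam1, Kdr and Ehd3 were instead lowest in Foxp1-deficient 2, at 1.4, 1.53 and 0 CPM. Emcn and Plvap were at 0 in both libraries numbered 2. In control 2, Cdh5 was at 0 as well, and the other 4, Tek, Pecam1, Kdr and Ehd3, were present at 57.8, 4.62, 2.63 and 1.37 CPM. The part of endothelial cells in the Car4 level was not tested.

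Car9 (chromosome 4, 43506966 to 43513729, plus strand) had 1.13, 0 and 1.41 CPM in control libraries 1, 2 and 3, against 0.452, 3.06 and 2.88 CPM in the equally numbered Foxp1-deficient libraries. Foxp1-deficient libraries 2 and 3 lay above all controls and Foxp1-deficient 1 did not. Its fold change was 1.30 (SE 1.53; edgeR quasi-likelihood, adjusted p = 0.9998), resting on 8 to 63 counts in the libraries that had any, and was 0.40 without both libraries numbered 2 and 0.01 without them in a fit with the block. An exon of Gm12454 on the opposite strand covers 9.29% of its exon bases.

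Promoter windows are shown for the 4 membrane-bound members, whose levels differed in pattern between libraries, and because the Car9 promoter is known for its hypoxia response element. Each holds 250 bases before and 50 after the start that RefSeq gives, which can differ from that of the count table's annotation, written 5′ to 3′ on the gene's strand, from RefSeq on GRCm38.p6, and windows were found for 6 of the 10 members. Capitals mark ACGTG or its reverse complement CACGT, the core of the hypoxia response element, and TGTTT or its reverse complement AAACA, a short forkhead core, searched on both strands.
Car4 (chr11:84957504-84957803, plus strand): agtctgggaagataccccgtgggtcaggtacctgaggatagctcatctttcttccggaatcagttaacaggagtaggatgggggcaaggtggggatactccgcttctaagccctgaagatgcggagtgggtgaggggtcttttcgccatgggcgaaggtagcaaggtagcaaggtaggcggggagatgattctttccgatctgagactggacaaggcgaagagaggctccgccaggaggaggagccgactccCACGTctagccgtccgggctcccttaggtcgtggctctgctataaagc
Car12 (chr9:66713436-66713735, plus strand): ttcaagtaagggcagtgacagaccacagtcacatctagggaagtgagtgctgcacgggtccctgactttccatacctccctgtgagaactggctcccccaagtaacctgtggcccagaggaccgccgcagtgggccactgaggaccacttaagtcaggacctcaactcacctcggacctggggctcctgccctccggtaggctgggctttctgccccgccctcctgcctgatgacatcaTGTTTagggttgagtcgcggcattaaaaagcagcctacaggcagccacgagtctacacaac
Car14 (chr3:95904636-95904935, minus strand): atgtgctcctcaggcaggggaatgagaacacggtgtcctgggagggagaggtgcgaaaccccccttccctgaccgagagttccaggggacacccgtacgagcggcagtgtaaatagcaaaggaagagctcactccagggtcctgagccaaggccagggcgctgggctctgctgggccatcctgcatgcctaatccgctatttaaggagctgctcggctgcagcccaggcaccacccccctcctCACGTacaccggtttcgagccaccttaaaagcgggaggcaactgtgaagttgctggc
Car9 (chr4:43506776-43507075, plus strand): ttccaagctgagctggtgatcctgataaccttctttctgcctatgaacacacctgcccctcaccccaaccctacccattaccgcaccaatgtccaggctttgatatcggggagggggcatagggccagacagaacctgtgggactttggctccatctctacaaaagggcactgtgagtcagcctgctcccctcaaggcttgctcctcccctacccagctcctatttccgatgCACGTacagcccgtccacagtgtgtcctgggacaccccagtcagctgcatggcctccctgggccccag
CACGT stood 18 to 14 bases before the start of Car9, 7 to 3 bases before that of Car14 and at bases 3 to 7 after that of Car4, and a match to this motif was in 19.6% of all 32851 windows. TGTTT stood 11 to 7 bases before the start of Car12, and 50.5% of all windows held that short core. The longer forkhead motif TGTTTAC, found in 3.65% of all windows, was in none of the 7 windows of the 6 members. These matches describe the letters only and show no binding.

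The acatalytic members were rare. Car8 (chromosome 4, 8143362 to 8239041, minus strand) had 0.930, 4.62 and 0.389 CPM in control libraries 1, 2 and 3, against 0.622, 0 and 0.824 CPM in the equally numbered Foxp1-deficient libraries. Control 2 alone held 44 of its 95 counts, and the other 5 libraries lay below 1 CPM. The fold change of -1.96 (SE 1.59; edgeR quasi-likelihood, adjusted p = 0.9998) shrank to -0.40 without control 2 and turned to 0.15 without both libraries numbered 2. Car11 (chromosome 7, 45699843 to 45704682, plus strand) had 6, 0 and 7 counts in controls 1, 2 and 3 and 1, 0 and 7 counts in Foxp1-deficient libraries 1, 2 and 3, which was too low to test.

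Between genotypes, no carbonic anhydrase gene passed the test, which at this spread between libraries does not show that none differed. Of the 10 genes 8 passed the filter on low counts, and of these 4 had positive and 4 negative log2 fold changes (edgeR quasi-likelihood, threshold 0.05 on the adjusted p). None of the 8 was called with or without the block, where 0% of the 14311 genes tested were called in each fit. None had an unadjusted p under 0.05 in either edgeR fit, against 0.72% of genes tested without and 5.32% with the block, and these are the shares to read the members against. DESeq2 called none of the 8 with or without the block, where it called 0.0419% and 1.18% of genes tested, and limma-voom none, where it called 0% and 0.0559%. At an unadjusted p under 0.05, DESeq2 held 0 of the 8 without the block and 1 with it, Car2 (adjusted p = 0.645), against 1.3% and 6.78% of genes tested, and limma-voom held 0 in both fits, against 0.818% and 7.48%. The CPM of the groups overlapped for all 10 genes, while the groups did not overlap for 4.75% of genes tested, 2.64% higher and 2.11% lower in Foxp1-deficient libraries. Car2 and Car3 were higher in all 3 pairs and no member was lower in all 3, where 16.5% of genes tested were higher and 16% lower in all 3 pairs. Among the 8 genes, the share of the variance of log2(CPM + 1) that lay between replicate numbers ran from 9.95% (Car8) to 99.7% (Car12), with a median of 79.9% over all genes tested, and the share between genotypes from 0.0283% (Car12) to 25.8% (Car8), with a median of 5.57%. Some share falls to each grouping of 6 libraries whatever the data.

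No marker of another cell type passed the test in either edgeR fit. The summed levels overlapped between groups for the macrophage, endothelial, stromal and intercalated lists. Those of the mesothelial list did not, with 1560 to 2350 CPM in controls and 2360 to 6210 CPM in the other group. The nearest libraries, at 2350 and 2360 CPM, were almost equal, and each mesothelial gene taken singly overlapped between groups. Of single genes tested, 4.75% did not overlap. All 7 macrophage and leukocyte genes had negative log2 fold changes, with sums of 278 to 875 CPM in controls and 50.6 to 413 in the other group. So had 6 of 7 endothelial genes, and the exception, Tek, was the largest part of each endothelial sum. The 7 stromal genes summed to 6960 to 19200 CPM in controls and 4150 to 19800 CPM in the other group. They were lowest in the library numbered 2 of each group and highest in that numbered 3. Intercalated cell genes summed to 10.1 to 79.5 CPM in controls and 13.8 to 115 in the other group, mostly from Slc4a1 in the libraries numbered 1 and 2. The part of these cells in the carbonic anhydrase values was not tested.

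**Figure D3:**
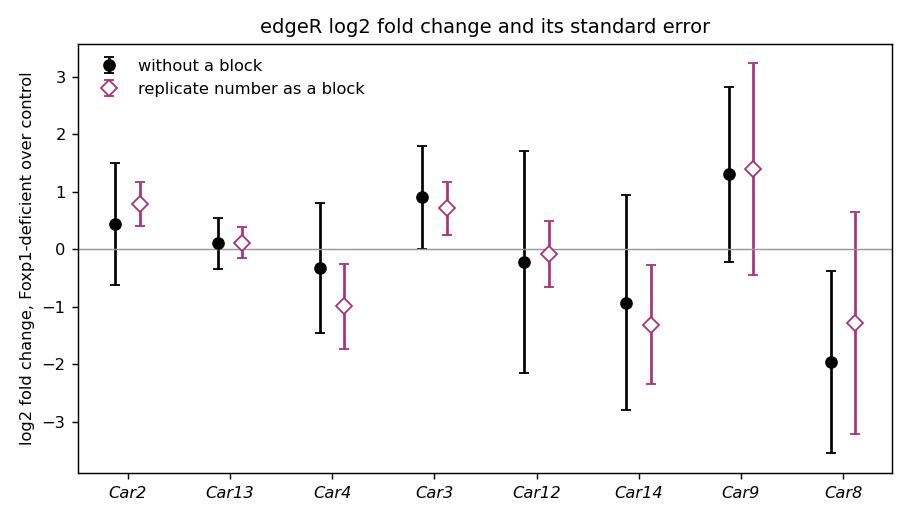
Log2 fold change of Foxp1-deficient over control for the 8 tested carbonic anhydrase genes, with its standard error, in the edgeR fits without a block (black) and with the replicate number as a block (open diamonds). Estimates run from -1.96 for Car8 to 1.30 for Car9 without the block, and none passed the test.

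The make-up of the family differed between libraries, also within pairs of equal number. The 10 genes together held 1596, 469 and 1727 counts in controls 1, 2 and 3 and 2321, 327 and 2220 counts in Foxp1-deficient libraries 1, 2 and 3, which is 106, 49.3 and 83.9 CPM and 131, 41.7 and 101.6 CPM. Car2 made up 57.8% of these counts in control 1 (exact 95% Clopper-Pearson interval 55.4 to 60.3) and 60.3% in Foxp1-deficient 1 (58.3 to 62.3). In the libraries numbered 3 its share was 36.5% (34.3 to 38.9) and 37.5% (35.5 to 39.6), so that the intervals overlapped within both pairs. They did not in pair 2, with 5.12% (3.31 to 7.52) in control 2 and 25.1% (20.5 to 30.1) in Foxp1-deficient 2. Car4 made up 34.1% in control 2 and 12.2% in Foxp1-deficient 2, and Car13 45.4% and 41.6%. Other members differed beyond counting error within pairs 1 and 3 as well. In pair 1, Car3 made up 7.83% in the control and 13.2% in the Foxp1-deficient library, Car4 2.69% and 0.474%, and Car14 4.07% and 0.646%. In pair 3, Car12 made up 20.8% and 13.9%, Car4 12.1% and 17.7%, and Car14 6.89% and 4.32%. Such intervals allow for counting error alone, as fragments without molecular identifiers are not independent molecules.

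By place of action, the 3 cytosolic genes took 89.0% of the family's summed RPKM in control 1 and 96.6% in Foxp1-deficient 1. In the libraries numbered 3 they took 60.1% and 59.7%, and the 4 membrane-bound genes took 37.7% and 38.0%. Control 2 had 39.7% from membrane-bound genes, all of it from Car4, and Foxp1-deficient 2 had 22.1%, from Car4 and Car9. In absolute terms the cytosolic sum was 38.5, 11.8 and 19 RPKM in controls 1 to 3 and 51.2, 13.9 and 24.0 in Foxp1-deficient libraries 1 to 3.

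**Figure D4:**
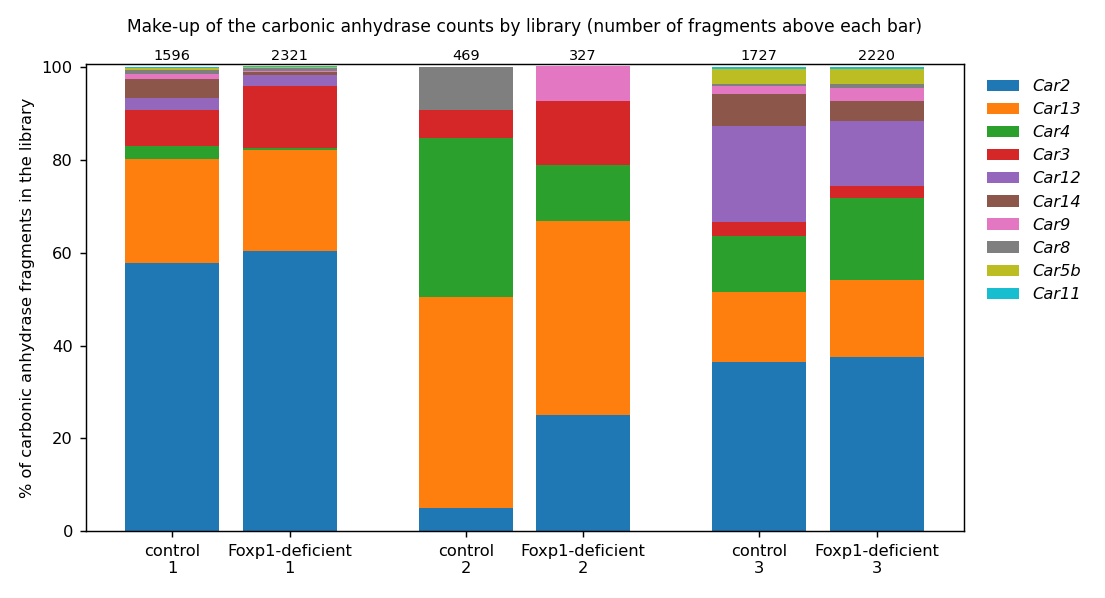
Share of each gene in the carbonic anhydrase counts of each library, in percent, with libraries of equal replicate number side by side and the number of fragments above each bar. Car2 takes 57.8% and 60.3% in the libraries numbered 1 and 36.5% and 37.5% in those numbered 3, while Car13 and Car4 lead in control 2.

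Bicarbonate and proton transporters, which work beside carbonic anhydrases, and related acid-base genes were read from the same fit. Of 29 listed genes 18 could be tested, of which 16 had higher and 2 lower means in the fit (median log2 fold change 0.46), or 15 and 3 in the fit with the block (median 0.48). Over all genes tested 53.6% were higher with a median of 0.03, or 49.5% and -0.01 with the block. None of the 18 passed in either fit. The 4 of lowest p were Slc26a6, an anion exchanger gene, with a mean of 3.52 ± 1.34 CPM in controls against 9.25 ± 10.9 CPM in the other group (SD, n = 3 each), Slc4a2, another anion exchanger gene, with 80.8 ± 21.6 and 122 ± 76.7, Slc9a3r1, a scaffold gene of proton exchangers, with 88.2 ± 49.0 and 135 ± 75.5, and Slc4a3 with 19.1 ± 6.72 and 26.3 ± 16.3. Foxp1-deficient 2 was highest for Slc26a6, at 21.8 CPM against at most 4.52 in the other 5 libraries, and for Slc4a2, at 210 against at most 105. Msln, Upk3b and Krt19, markers of mesothelium, the lining of body cavities, were also highest in that library, at 1590, 2640 and 1790 CPM. The other listed markers, Lrrn4, Wt1 and Muc16, were the lowest of the Foxp1-deficient group there, at 86.3, 86.3 and 7.01 CPM. The 6 mesothelial genes summed to 6210 CPM there, against 2360 and 2720 in Foxp1-deficient 1 and 3, and their part in these levels was not tested.

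Hypoxia response genes were set beside Car9. All 16 listed genes could be tested, of which 4 had positive and 12 negative log2 fold changes (median -0.19), or -0.25 with the block. None passed in either fit. Slc2a1, encoding a glucose transporter, averaged 129 ± 42.9 CPM in controls against 271 ± 137 CPM in the other group, Adm, encoding adrenomedullin, 19 ± 5.22 and 11.2 ± 6.24, Pdk1, a pyruvate dehydrogenase kinase gene, 14.0 ± 5.64 and 18.9 ± 4.2, and Ndrg1 37.5 ± 28.1 and 53.6 ± 35.7 (SD, n = 3 each). Car9 and most of the list thus had fold changes of opposite sign, none of them beyond the spread between libraries.

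The other carbonic anhydrase genes had 6 to 46 counts over all libraries. Car1, an erythroid gene, had 1 count in control 1, 5 in Foxp1-deficient 1 and 0 in the other 4 libraries. Car5a had 3 and 5 counts and Car15 had 5 and 9 counts in control 3 and Foxp1-deficient 3, and Car15 had 4 more in Foxp1-deficient 1. Car6 and Car10 had 16 and 19 counts in Foxp1-deficient 2, which is 2.04 and 2.42 CPM, and at most 4 counts in any other library. Car7 had 0, 0 and 3 counts in controls 1, 2 and 3 and 4, 25 and 14 counts in the equally numbered Foxp1-deficient libraries, up to 3.19 CPM in Foxp1-deficient 2. Its groups did not overlap, by 1 count between the nearest libraries, and it was not tested. None of these 6 genes passed the filter on low counts.

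For the 5 members that averaged at least 5 CPM, the most similar genes were sought by Pearson's r of log2(CPM + 1) over the 6 libraries among 10325 other genes of at least 5 CPM, as a description, since the 6 points share libraries, depth and replicate structure. For Car2 these were Spata2 (r = 0.999) and Eif5a2 (r = 0.998), and 573 genes exceeded 0.95. For Car12 they were Glb1 (r = 0.997) and Gnas (r = 0.993), with 98 genes above 0.95, and for Car4 Mdc1 (r = 0.991) and Epha8 (r = 0.98), with 16. The value of r leaves out the size of the swings. Glb1 ran only from 23.4 to 35.5 CPM and Mdc1 from 62.5 to 78.5, far less in proportion than Car12 and Car4. Gnas, from 13.6 to 86.7 CPM, and Epha8, from 0.565 to 10.1, varied more. Car3 was most like Ap1s2 (r = 0.989) and Dusp9 (r = 0.975), and Car13 most like Dusp18 (r = 0.988) and Fam53c (r = 0.956), with 18 and 3 genes above 0.95.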

How the data were processed

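RNA from anti-HA ribosome pulldowns was counted in 6 kidney libraries, grouped and numbered by their titles. The deposited counts are whole fragments per gene symbol over exons, made with featureCounts 1.5.1 in paired mode on mm10 annotation version 86, per the file headers, with no strand option and no option for multi-mapping reads. STAR and Trimmomatic are named per the submitters' processing notes; neither version nor setting is stated there. Exon lengths are those the authors deposited.

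The test was that of edgeR 4.0.16 under R 4.3.3, with TMM, filterByExpr, quasi-likelihood F test, two-sided, Benjamini-Hochberg over 14311 genes at 0.05. CPM and RPKM use TMM-scaled library sizes. On simulated data with known changes the edgeR fits recovered the size of the changes, but the fit without the block called no changed gene and the fit with the block only some, so a missing call does not show that a gene did not change. DESeq2 with the block also called many unchanged genes there. In the simulation, libraries of equal number were given the same mean apart from the changes, so the pairing was built in. The changes lay only in genes averaging at least 5 CPM, so rarer members are not covered. Alternatives used DESeq2 1.42.0, limma-voom 3.58.1, other size factors and filters, a replicate block, and libraries left out. Deviations from group means correlated at r = 0.707, 0.685 and 0.717 between libraries numbered 1, 2 and 3 (log2(CPM + 1), 14311 genes). Equal numbers were therefore compared as pairs and served as the block in alternative fits, but the main test did not pair them. The pairing rests on the data, as no label states it. A total of 3 counts, which a count of 0 allows, is 0.137 to 0.382 CPM. All 10 members, and up to 4 genes of lowest p from 2 further lists, are named. The value of 1 listed marker gene is not reported here. The members and lists were chosen with earlier results of these data known. Figures were drawn with matplotlib 3.10.9.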

Additional observations from a re-analysis of the deposited data

How the results depend on the processing

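Over 17 alternatives, no carbonic anhydrase gene passed the threshold in any, and the lowest adjusted p was 0.377, for Car2 without both libraries numbered 2 in a fit with the replicate block. Of 131 member results under alternatives, 116 kept direction and 15 reversed, in 6 of the 8 genes; Car9 and Car14 never reversed. The count of all genes differing between genotypes was 0 with the main settings (103 at an unadjusted p under 0.05), 6 with DESeq2, 169 with DESeq2 and a replicate block, 8 with limma-voom and a replicate block, and 30 in edgeR without both libraries numbered 2 and with a replicate block; the edgeR replicate block with all libraries gave 0 (762 at an unadjusted p under 0.05). The count of carbonic anhydrase genes called was 0 in each, and the replicate block changed no call among them. Car4 reversed to 0.13 with limma-voom and a replicate block and to 0.53 without both libraries numbered 2, Car8 to 0.15 without those libraries and to 0.24 without them in a fit with a replicate block, and Car12 to 0.20 with limma-voom; the cause was not tested. With each library left out in turn, log2 fold changes ranged from -0.38 to 1.36 for Car2, -0.15 to 1.68 for Car3, -1.83 to 0.28 for Car4, -2.09 to 2.04 for Car12 and -0.21 to 0.27 for Car13. DESeq2 with a replicate block gave no adjusted p for 3 genes, Car8, Car9 and Car14. Car5b and Car11 did not pass the filter on low counts with all 6 libraries. Over the same left-out libraries, values ran from -2.91 to -0.29 for Car14, -2.55 to -0.40 for Car8 and 0.73 to 1.86 for Car9.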
